A study of Mus musculus with 45 samples.

Results

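The long noncoding RNAs Malat1 and Neat1 are 2 of the 54838 genes in a table of RNA-sequencing counts from mouse mammary tumour cell lines, and their levels were followed here through 45 libraries and 15 cell lines, also against the share of reads in each library that fell in no annotated gene. The pair was selected on the counts themselves, Malat1 having run higher in the lines grown out from lung. The contrast between lung and fat-pad lines is therefore described without a test, and tests are given for other comparisons. Those that set derived against parental lines include the lung lines without a term for site, and are not independent of the choice. The test of origin within lung lines alone is not independent of it either.

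Malat1 is a single-exon RNA that stays in the nucleus and gathers in speckles, the bodies around which splicing factors are stored. Its 3′ end is not made by ordinary polyadenylation: RNase P cuts the transcript below a genomically encoded A-rich stretch that folds into a triple helix, and the piece released becomes a small tRNA-like RNA. Neat1, the neighbouring gene, is the scaffold of paraspeckles. It makes a short polyadenylated RNA and a long one that ends in a triple helix like that of Malat1, and only the long one builds paraspeckles. Both RNAs have been studied in mammary tumours driven by polyomavirus middle T antigen, with opposing reports on what Malat1 does to metastasis, and Neat1 is needed for full development of the mammary gland.

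All cell lines carried the PyMT transgene (PyMT+), which in the MMTV-PyMT model is expressed from a mammary epithelial promoter. The 2 parental lines, YEJG and YEJH, are labelled as primary mammary gland tumour. Cells of these lines were grown in the mammary fat pad of mice, and 6 fat-pad lines (YEJG-FP and YEJH-FP1 to YEJH-FP5) and 7 lung lines (YEJG-M1, YEJG-M2 and YEJH-M1 to YEJH-M5) were derived, the latter from micrometastases that formed after the primary tumour had been resected. Each line came as 3 technical repeats and the labels name no treatment of the cultures. The labels give the lung lines as whole lung, except YEJH-M3, which they give as lung metastases. YEJG contributed 3 derived lines and YEJH 10, and the YEJG arm rests on 1 fat-pad line and 2 lung lines. No age was stated.

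The libraries held between 9723860 and 16943900 reads on genes, with a median of 13944899. Malat1 took 0.0400% to 0.207% of these reads and Neat1 0.00463% to 0.0148%. Library names fell into 2 sets, here called A (22 libraries) and B (23 libraries). All A libraries held reads that the counter set aside for low alignment quality, at 4.11% to 5.81% of all reads, and all B libraries held 0 such reads. The second repeat of YEJH-M3 stood apart: 13.3% of its reads fell in no gene, against at most 8.30% in any other library, and 15.2% were not aligned, against at most 6.97%. The first repeat of YEJG-M1 is given as that line by its title and cell line label, while its library name carries YEJH-M1. It was kept under its title, and over 14339 genes its log2 levels had r = 0.977 and 0.993 with the other two YEJG-M1 libraries and 0.933 to 0.951 with the 3 libraries of YEJH-M1. The keratins Krt8 and Krt18, Epcam and Cdh1 were detected in every line, as markers of epithelium, as was the basal keratin Krt14 at 131 to 1375 CPM, while the basal keratin Krt5 was below the expression filter. Of the 7 leukocyte markers 6 were below that filter, and the leukocyte list summed to at most 0.000652% of the reads on genes in any library. Of the 5 lung epithelial markers 3 were below it (Sftpc, Sftpb and Scgb1a1), and Ager reached at most 0.412 CPM in a line. Foxj1, the fifth, ran from 1.52 to 52.1 CPM over lines, and this list summed to at most 0.00704%.

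Malat1 (ENSMUSG00000092341) lies on chromosome 19 at 5845717 to 5853602 of GRCm39, on the minus strand, and spans 7886 bases. Neat1 (ENSMUSG00000092274) lies upstream of it on the same strand, at 5874736 to 5897132, and spans 22397 bases, with 21133 bases between the annotated spans. The library kit did not mark strand, so reads of antisense genes inside these spans cannot be told apart from those of the members. The antisense genes in the table reached at most 18 counts in a library (Gm37376, within Malat1) and 10 counts (Frmd8os, at Neat1). The count table also gives 1 number per gene, so the short and long forms of Neat1 were not separated.

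The promoter of Malat1 is shown because the level of this RNA is what the results below turn on. The 300 bases run from 250 before to 50 after the RefSeq start, were taken from a RefSeq table of GRCm38.p6 and matched once on chromosome 19 of GRCm39, at chr19:5852651-5852950 on the minus strand, which is inside the GENCODE span of the gene. Capitals mark TGACG, read on either strand, the half-site of the cAMP response element.

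Malat1 promoter: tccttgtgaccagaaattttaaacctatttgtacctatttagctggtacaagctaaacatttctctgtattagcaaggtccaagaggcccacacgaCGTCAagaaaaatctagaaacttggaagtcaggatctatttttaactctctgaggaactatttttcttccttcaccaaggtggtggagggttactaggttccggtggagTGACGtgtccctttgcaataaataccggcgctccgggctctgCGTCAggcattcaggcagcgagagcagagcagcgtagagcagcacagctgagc

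The half-site occurred 3 times in this window, and 20.8% of the 32851 promoters in the table held at least 1. ACGTG, the core of the hypoxia response element, occurred once, overlapping a half-site, and was held by 19.6% of promoters on either strand. The letters CCAAT, held by 37.4% of promoters, had no match on either strand. The GC box, spelled GGGCGG, is held by 35.7% and also had no match. The same was true of TATAAA, held by 13.6%. These matches describe the letters of the window and say nothing of what binds there.

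Levels are given as CPM, counts divided by library size, after TMM scaling, which brings libraries of different make-up to a common level. The parental line YEJG had the lowest Malat1 of the 15 lines, with 411 CPM, 542 CPM and 679 CPM in its 3 repeats. In the parental line YEJH the repeats gave 608 CPM, 862 CPM and 1713 CPM. The third YEJH library therefore lay above the level of every fat-pad library, while the other two lay in or below the lower part of their range. Malat1 in the single fat-pad line of YEJG was 1012 CPM, 1081 CPM and 1080 CPM, close together and above all 3 parental YEJG libraries.

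**Figure D1:**
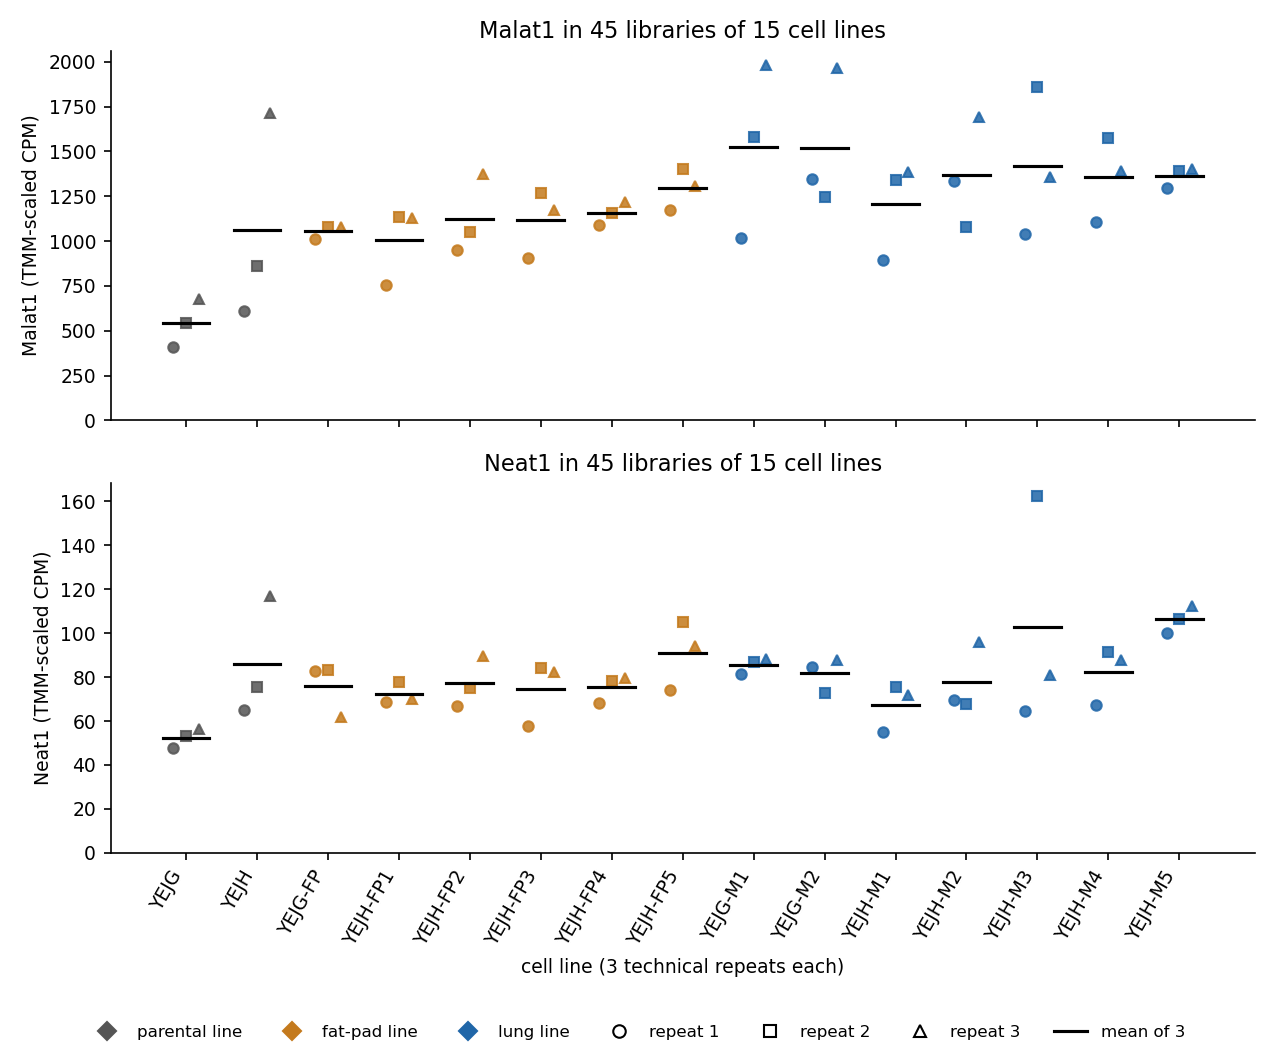
TMM-scaled CPM of Malat1 (top) and Neat1 (bottom) in each library, by cell line, with colour for parental, fat-pad and lung lines, the symbol for the repeat number and the bar for the mean of the 3 repeats. Parental YEJG is lowest for both RNAs, the third repeat of YEJH and the second repeat of YEJH-M3 stand above their own line's other repeats, and line means of Malat1 run from 544 to 1526 CPM.

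The line means of Malat1 ran from 544 ± 134 CPM (SD, n = 3 repeats) in YEJG to 1526 ± 485 CPM in YEJG-M1, a range of 2.80-fold. YEJG-M1 had a mean of 1780 CPM without its first repeat, the library whose name carries another line, and the range was then 3.27-fold. Of the 14 pairs of neighbours in the order of line means, 1 pair had repeats that did not overlap. That pair was parental YEJG, with repeats up to 679 CPM, and YEJH-FP1, with repeats from 753 to 1134 CPM. The repeats of YEJG-M1, from 1017 CPM up, overlapped those of YEJH-FP1, so the order sets apart no upper end. Among the 13 derived lines the SD of the line means was 0.19 on the log2 scale, and the median SD among the 3 repeats of a line was 0.27. The first is a spread of means of 3 and the second of single libraries, so they are not like measures. The second also holds the shift with repeat number described below.

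Neat1 was the lower of the pair and spanned a narrower range of line means. Parental YEJG again had the lowest mean, with 47.6 CPM, 53.3 CPM and 56.4 CPM in its repeats, and the means ran up to 106 ± 6.08 CPM in YEJH-M5, a range of 2.03-fold. No pair of neighbours in that order had separate repeats. In YEJH-M3 the repeats gave 64.6 CPM, 163 CPM and 81.1 CPM, the highest of them in the library that stood apart in its unassigned reads.

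Per kilobase of gene span the gap between the members was wide. Malat1 counts per kilobase exceeded those of Neat1 by 29.7-fold in YEJG, the lowest of the lines, and by 53.1-fold in YEJG-M2, the highest, with a mean of 42.8 ± 6.69 over the 15 lines (SD). This is a ratio of levels over the whole annotated span. Reads of the short Neat1 cover only part of its span, so the value depends on which form was sequenced.

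The contrast on which the pair was chosen compares lung with fat-pad lines, and the values here are a description. Malat1 line means were 1005, 1121 and 1294 CPM (lowest, median and highest) in the 6 fat-pad lines and 1207, 1368 and 1526 CPM in the 7 lung lines. The groups overlapped: 6 lung lines lay above every fat-pad line, while YEJH-M1 lay below YEJH-FP5. The mean was 1126 ± 98.5 CPM in fat-pad lines and 1394 ± 109 CPM in lung lines (SD over lines), 1.24-fold higher in lung, and the fitted difference was 0.31 on the log2 scale with a standard error of 0.065. Without the first repeat of YEJG-M1 it was 0.35. In bulk RNA, fewer cells that express a gene and less RNA per cell cannot be told apart.

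Within YEJH the Malat1 difference was smaller, with a fitted log2 difference of 0.23 and means of 1139 ± 104 CPM in 5 fat-pad lines and 1343 ± 79.9 CPM in 5 lung lines. In YEJG the 2 lung lines had means of 1526 and 1519 CPM against 1058 CPM in the fat-pad line, a ratio of 1.44. The YEJH lines of the 2 sites share numbers in their names, and lung over fat-pad ratios by number ran from 1.05 (number 5) to 1.27 (number 3). Lines of equal number were not more alike than others, with mean correlations of -0.038 and 0.0095 in their deviations from the site mean. The labels do not say whether lines of equal number came from the same mouse, and these correlations cannot exclude it. The numbers are not read as pairs here, and the tests over derived lines take the lines as independent. Over both origins the log2 difference was 0.35 in library set A and 0.29 in set B, and with the repeats taken 1 number at a time it was 0.23, 0.27 and 0.38. These splits reuse the lines on which the pair was chosen and add no independent evidence.

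Neat1 differed less by site. Its line means were 72.2, 75.7 and 91.2 CPM (lowest, median and highest) in fat-pad lines and 67.5, 82.3 and 106 CPM in lung lines, so that all 6 fat-pad lines lay above the lowest lung line. The fitted log2 difference was 0.14 with a standard error of 0.091, and it was 0.07 without the second repeat of YEJH-M3. Of the 15056 genes tested in this contrast with edgeR's quasi-likelihood test, 0 passed an adjusted p of 0.05 (0% background), and DESeq2 called 22. In edgeR 784 had an unadjusted p under 0.05, near the share that this threshold gives where no gene differs.

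The passage through mice is addressed by comparing the 13 derived lines with the 2 parental lines. Of the derived lines 7 are the lung lines on whose high Malat1 the pair was chosen. The p-values for Malat1 here are therefore not independent of that choice. Malat1 was higher in the derived lines by 0.59 on the log2 scale (standard error 0.21), a difference that did not pass the test (edgeR, adjusted p = 0.0996), where 7.77% of 16361 genes passed. Neat1 was higher by 0.18 (standard error 0.16, adjusted p = 0.536). The Malat1 call in edgeR changed when 1 library was left out: without the third repeat of YEJH the difference was 0.99 (standard error 0.16, adjusted p = 0.00164), and that of Neat1 was 0.40 (adjusted p = 0.0715). In library set A alone Malat1 differed by 0.79 (adjusted p = 0.0284) and in set B alone by 0.53 (adjusted p = 0.196). With all libraries it passed in DESeq2 (0.59, adjusted p = 0.0413) and in limma on single libraries (0.78, adjusted p = 0.00788), and in edgeR it was 0.13 without parental YEJG and 1.32 without parental YEJH.

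**Figure D2:**
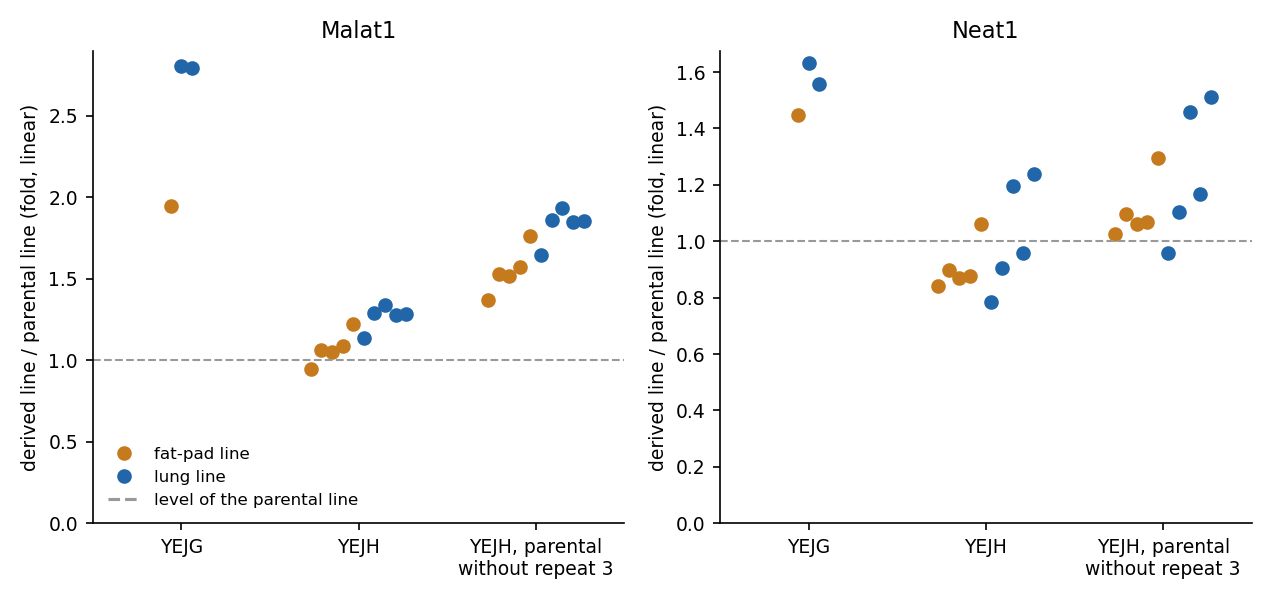
Level of Malat1 (left) and Neat1 (right) in each derived line divided by that of its parental line, on a linear axis, for YEJG, for YEJH and for YEJH with the third parental repeat left out. Each point is the mean of 3 repeats of 1 line: the YEJG folds for Malat1 lie between 1.94 and 2.80, and the YEJH folds move from 0.947 to 1.34 up to 1.37 to 1.93 without that library.

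Each origin has its own parental line. All 3 YEJG-derived lines lay above parental YEJG in Malat1, by 1.94-fold (YEJG-FP), 2.79-fold (YEJG-M2) and 2.80-fold (YEJG-M1). Of the 10 YEJH-derived lines 9 lay above parental YEJH, with a mean of 1.17-fold. For Neat1 the YEJG-derived lines lay 1.45-fold to 1.63-fold above their parental line, while 3 of 10 YEJH-derived lines lay above theirs, with a mean of 0.962-fold.

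The difference between the origins was tested as an interaction, chosen after these values were seen. It also holds the lung lines with no term for site, so it is not independent of the choice of Malat1. For Malat1 the derived-minus-parental log2 difference was larger in YEJG by 1.19 (standard error 0.28, adjusted p = 0.0449 in edgeR), in a fit where 1.84% of 17110 genes passed. For Neat1 it was larger by 0.73 (standard error 0.27, adjusted p = 0.198). Each parental arm is 1 line and is assumed to vary like the derived lines. Without the third repeat of parental YEJH the Malat1 interaction was 0.57 (adjusted p = 0.322), and without the first repeat of YEJG-M1 it was 1.26 and did not pass (adjusted p = 0.0549).

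Neither member passed the test for the origin of the derived lines, the comparison in which most genes were called. Over the 13 derived lines, with site as a term in the fit, 40.8% of 15815 genes differed between YEJG-derived and YEJH-derived lines. Malat1 differed by 0.07 (standard error 0.074, adjusted p = 0.497), with means of 1368 ± 268 CPM in 3 YEJG-derived and 1241 ± 138 CPM in 10 YEJH-derived lines. Without the first repeat of YEJG-M1 it differed by 0.15 (adjusted p = 0.188). Neat1 differed by -0.07 (standard error 0.10, adjusted p = 0.645), with means of 81.1 ± 4.85 and 82.7 ± 13.1 CPM. Within lung lines alone, Malat1 was higher in YEJG by 0.19 (edgeR, adjusted p = 0.0454), and by 0.30 without that library (adjusted p = 0.0201). That fit sets 2 YEJG lung lines against 5 of YEJH. The pair was chosen on the high Malat1 of these lines, so the p-values are not independent of the choice. The fit without that library was chosen after seeing the data. The ratio of Malat1 to Neat1 counts differed between origins by 0.15 on the log2 scale, with means of 4.07 ± 0.24 and 3.92 ± 0.16 (two-sided exact permutation test, p = 0.245 over 286 splits).

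Among sister lines of 1 origin and site, differences were tested over the 3 technical repeats, so that these p-values measure the spread between repeats of a culture and not between animals. In the 5 YEJH lung lines, 20.6% of 13599 genes differed. The fitted Malat1 levels spanned 0.23 on the log2 scale (adjusted p = 0.914) and those of Neat1 spanned 0.67 (adjusted p = 0.271). Neat1 passed when the second repeat of YEJH-M3 was left out, with a span of 0.63 (adjusted p = 0.0215): YEJH-M5 gave 100 CPM, 107 CPM and 112 CPM, above all 3 repeats of YEJH-M1, at 54.9 CPM, 75.7 CPM and 71.8 CPM. In the 5 YEJH fat-pad lines, 1.19% of 13429 genes differed, and the spans were 0.30 for Malat1 (adjusted p = 0.9995) and 0.29 for Neat1 (adjusted p = 0.98).

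Malat1 also varied among the technical repeats of a line. The lowest, median and highest levels over the 15 lines were 411, 1017 and 1347 CPM in the libraries numbered repeat 1. They were 542, 1246 and 1861 CPM in those numbered 2, and 679, 1374 and 1983 CPM in those numbered 3. Repeat 1 was the lowest of a line's 3 libraries in 13 of 15 lines, and in 15 of 15 lines it lay below repeat 3. For Neat1, repeat 1 was the lowest in 12 of 15 lines, and the medians were 68.4, 78.2 and 87.7 CPM.

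**Figure D3:**
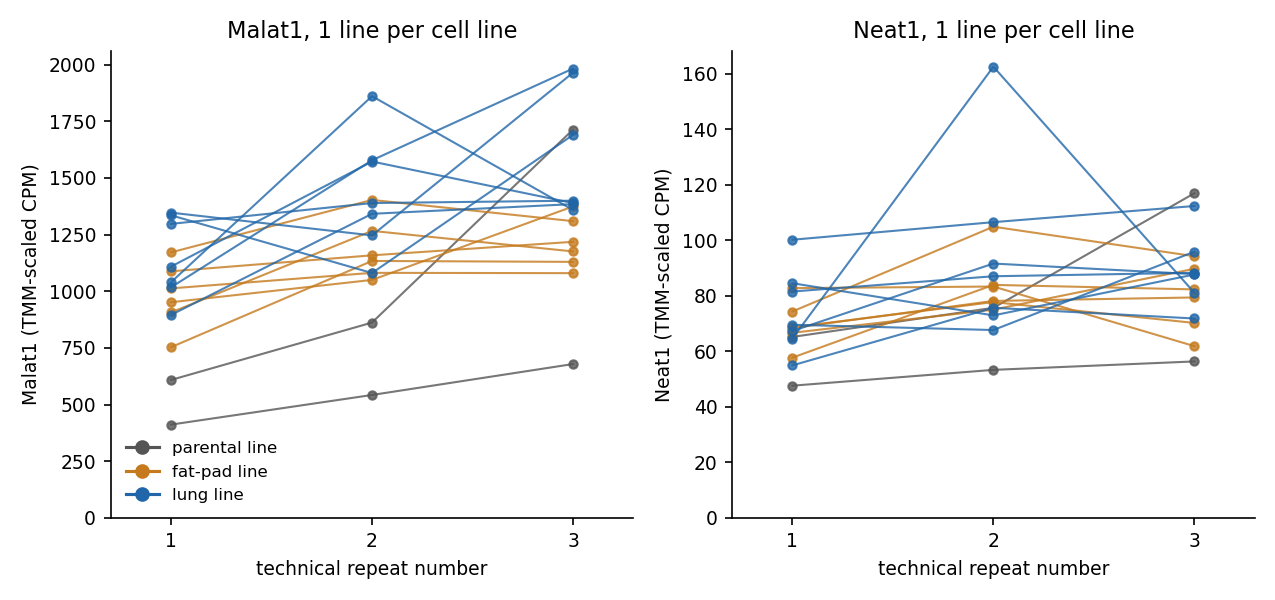
TMM-scaled CPM of Malat1 (left) and Neat1 (right) by technical repeat number, with 1 connected line per cell line coloured by parental, fat-pad or lung. Repeat 1 of Malat1 lies below repeat 3 in 15 of 15 lines, and its median over lines is 1017 CPM against 1246 and 1374 CPM.

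A test of the repeat number, with the cell line and the library set as terms, was added after this was seen. The fitted Malat1 levels of the 3 numbers spanned 0.49 on the log2 scale (edgeR, adjusted p = 7.54e-05) and those of Neat1 spanned 0.27 (adjusted p = 0.00998), where 37.4% of 14339 genes passed. Both passed without the libraries of the parental line YEJH, with spans of 0.42 and 0.28. The labels do not say whether equal numbers mark a shared day or batch. The numbers were spread evenly over the library sets, with 8, 7 and 7 of the A libraries, and the sets themselves did not separate the members: set B minus A was 0.12 for Malat1 (standard error 0.10, adjusted p = 0.545) and 0.13 for Neat1 (standard error 0.083, adjusted p = 0.399), where 15.9% of genes passed. Reads of mitochondrial genes moved with the number, with medians of 0.781%, 0.870% and 0.948% of the reads on genes in repeats 1, 2 and 3, and so did those of replication-dependent histone genes, at 1.01%, 0.922% and 0.893%. Their part in the result was not tested.

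Reads in no annotated gene come from introns, unannotated transcripts and the like, and their share is set here beside the levels of the members. The line means of this share ran from 6.34% of all reads in YEJH-M1 to 8.99% in YEJH-M3, with a median of 7.06%. Neat1 tracked it: over the 15 lines Pearson's r was 0.79 and Spearman's rho 0.78. Without YEJG-M1 and YEJH-M3, the 2 lines farthest from the median share, r was 0.82 and rho 0.73, and r was 0.78 without the second library of YEJH-M3. Malat1 tracked it less closely, with r = 0.55 and rho = 0.57, and without the same 2 lines r was 0.55 and rho 0.37. In library sets A and B taken apart, r was 0.73 and 0.43 for Malat1 and 0.76 and 0.81 for Neat1.

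These correlations describe points that share a library, its depth and its fragments, and no test was made of them. To place them, r with the no-feature share was computed for the 8892 genes with a mean of at least 10 CPM, on counts summed by line. It was 0.72 for Neat1, with 0.36% of genes higher, and 0.50 for Malat1, with 3.72% of genes higher, while the median gene had -0.06. The share itself differed between origins by 0.30 percentage points, with 7.58 ± 0.31% in YEJG-derived and 7.27 ± 0.71% in YEJH-derived lines (two-sided exact permutation test, p = 0.49), and by 0.52 points (p = 0.0594) without the second library of YEJH-M3. With the share as a further term in the fit, the derived-minus-parental difference was 0.49 for Malat1 (adjusted p = 0.196) and 0.03 for Neat1 (adjusted p = 0.941), and the lung-minus-fat-pad value was 0.29 for Malat1 and 0.07 for Neat1.

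**Figure D4:**
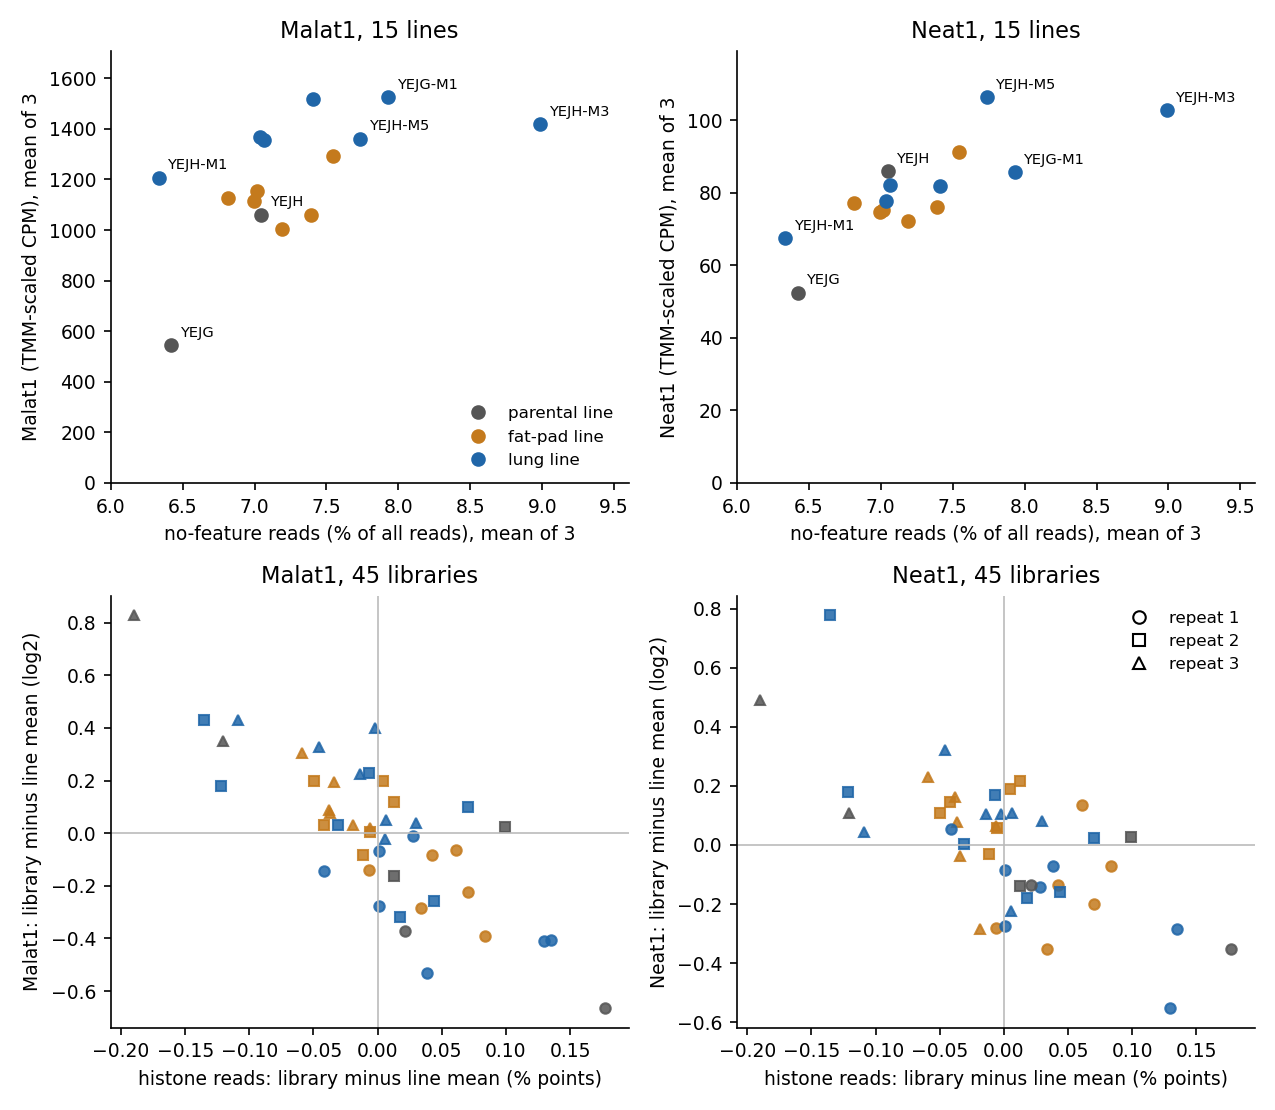
Top: mean level of Malat1 (left) and Neat1 (right) against the mean share of reads in no annotated gene, 1 point per cell line. Bottom: the log2 level of each library minus its line mean against the same deviation of the histone share in percentage points, 45 libraries, with Pearson's r of -0.79 for Malat1 and -0.69 for Neat1.

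Within lines, the members moved with 3 read classes. The deviation of a library from its line mean in Malat1 had r = 0.53 with that of the no-feature share, 0.68 with the mitochondrial share and -0.79 with the share of histone reads. For Neat1 the values were 0.84, 0.74 and -0.69. Replication-dependent histone mRNAs end in a stem-loop and not in a poly(A) tail. The correlation of Malat1 with the histone share was lower than that of 99.4% of the 8892 genes, and that of Neat1 was lower than that of 93.1%. With the no-feature share, 9.41% of genes had a higher r than Malat1 and 0.652% a higher r than Neat1. With the mitochondrial share these were 2.63% and 0.900%. Many genes moved with these classes, so the members are not alone in it. Without YEJH-M3 the Neat1 values were 0.76, 0.60 and -0.62, and those of Malat1 were 0.59, 0.65 and -0.77. These points share lines and libraries, and all classes are shares of the same reads.

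The levels of the members moved together. Over the 15 lines r between log2 Malat1 and log2 Neat1 was 0.78 and rho 0.63, and r was 0.52 without parental YEJG and YEJH-M5, the lines farthest from the median of Neat1. Between libraries of a line it was 0.78 over 45 libraries. Ranked among the same 8892 genes over line sums, Neat1 was number 124 in likeness to Malat1 (r = 0.77), and Malat1 was number 20 in likeness to Neat1.

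The 5 genes most like Malat1 were Rassf5 (r = 0.93), a Rap1 and Ras effector, Mov10 (0.92), an RNA helicase, Unc5b (0.91), a netrin receptor, Hdac5 (0.91), a class IIa histone deacetylase, and Erbin (0.90), a partner of the receptor ErbB2. All 5 had their lowest level in parental YEJG, as Malat1 did, with Unc5b at 69.7 CPM there and 181 CPM in YEJG-M2. The 5 most like Neat1 were Tmed8 (0.86), Zfp280d (0.85), Dennd6a (0.85), Spaca6 (0.84) and the noncoding 4632427E13Rik (0.84). All 5 had their highest level in YEJH-M5, as Neat1 did, with Tmed8 at 40.5 CPM against 19.7 CPM in parental YEJG. Over 15 points with 1 extreme line, such likeness describes the order of the lines.

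The partners of the RNAs were read from lists of genes. Of 15 paraspeckle protein genes 3 were higher in YEJG-derived lines and 0 lower, where 19.2% of all genes were called higher and 21.6% lower. They were Nudt21, a subunit of cleavage factor Im, which favours the short form of Neat1 (0.28 on the log2 scale, standard error 0.063, edgeR adjusted p = 0.0031), Ewsr1 (0.16, adjusted p = 0.00298) and Tardbp (0.15, adjusted p = 0.0226), both RNA-binding proteins. The median over the list was 0.03, against 0.00 over all genes. In derived against parental lines, where 3.55% of all genes were called higher and 4.23% lower, 1 of 15 rose, the nuclear matrix protein gene Matr3 (0.24, standard error 0.059, adjusted p = 0.025), from 234 CPM and 287 CPM in the parental lines to 313 ± 13.5 CPM.

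Of 18 nuclear speckle and splicing factor genes, 7 were higher and 1 lower in YEJG-derived lines, 8 called in all, where 40.8% of all genes were called. Of all genes 19.2% were higher and 21.6% lower, and the list median was 0.08. The higher ones included Hnrnpc (0.21), Srsf7 (0.20) and Srsf3 (0.20), RNA-binding splicing regulators, and the lower one was Clk4 (-0.22, adjusted p = 0.0292), a kinase of SR proteins. In derived against parental lines, where 7.77% of all genes passed, 0 of 18 passed in edgeR. At an unadjusted p under 0.05, a looser threshold that more than 7.77% of all genes met, there were 3 of 18.

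Of 14 genes for 3′ end processing and the triple helix, 9 were higher and 2 lower in YEJG-derived lines, with a median of 0.27. Of all genes 19.2% were called higher and 21.6% lower. The RNase P subunit genes Rpp40 (0.61, standard error 0.080, adjusted p = 9e-05) and Rpp38 (0.49) and the RNase Z gene Elac2 (0.41), whose product trims the small RNA cut from Malat1, were higher, with Elac2 at 83.8 ± 4.20 CPM against 62.5 ± 2.37 CPM. Rpp25 was called lower, but at 0 CPM in the 3 YEJG-derived lines and 0.211 ± 0.101 CPM in the YEJH-derived lines it was barely detected. Against the parental lines 2 of 14 passed in edgeR, where 7.77% of all genes did. The exosome nuclease gene Dis3 rose by 0.22 (adjusted p = 0.0127) and the RNase P subunit gene Rpp21 fell by 0.39 on the log2 scale (adjusted p = 0.0368).

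Of 24 other long noncoding RNAs 19 were tested, and 9 were higher and 3 lower in YEJG-derived lines, with a median of 0.23. Of all genes 19.2% were called higher and 21.6% lower. Among those called, the largest differences were in Airn, the antisense transcript of Igf2r (-1.24), Snhg20 (-0.68), Pvt1, the neighbour of Myc (0.63), and Firre (-0.54). Airn was low, at 0.512 CPM in YEJG-derived and 1.23 CPM in YEJH-derived lines. Xist, which silences an X chromosome, differed by -1.45 and did not pass (adjusted p = 0.145). In derived against parental lines, where 7.77% of all genes passed, 0 of 19 passed in edgeR. At an unadjusted p under 0.05, a looser threshold that more than 7.77% of all genes met, there were 2 of 19. Over the 13 genes beside Neat1 and Malat1 on chromosome 19, 1 passed by origin, Znrd2 (0.28, adjusted p = 0.000968), where 40.8% of all genes passed. Against the parental lines 1 passed, Ehbp1l1, which rose by 0.80 (adjusted p = 0.0452), from 51.3 CPM and 49.3 CPM to 92.6 ± 18.8 CPM. Of 6 regulators of Neat1 transcription, Trp53 was higher in YEJG-derived lines (0.16, edgeR adjusted p = 0.0149) and Epas1, the gene of HIF-2α, lower (-0.63, adjusted p = 0.049). Against the parental lines 0 of 6 passed in edgeR. At the unadjusted threshold, which more than 7.77% of all genes met, there were 3 of 6.

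Markers of cell state moved in the same contrasts. Of 6 mammary epithelial markers tested, 5 were lower in YEJG-derived lines (median -1.22), where 21.6% of all genes were called lower. Among them were Krt19 (-2.47), Cdh1 (-1.54), Epcam (-1.51) and Krt18 (-0.93). Krt14 (-1.75, edgeR adjusted p = 0.0207) and Epcam (-0.98) were lower in derived than in parental lines, where 4.23% of all genes were. The 3 fibroblast markers tested were called higher in YEJG-derived lines, where 19.2% of all genes were. The differences were 2.61 for Col1a1, 2.47 for Col1a2 and 2.12 for Pdgfra. YEJG-derived lines had Col1a1 at 1.82 ± 1.89 CPM and Pdgfra at 18.05 ± 21.08 CPM, with SDs above the means. Col1a2 was at 3.29 ± 1.61 CPM there. The YEJH-derived means were 0.243 CPM (Col1a1), 0.576 CPM (Col1a2) and 3.64 CPM (Pdgfra). Col1a2 was also higher in derived than in parental lines by 3.13 (edgeR, adjusted p = 0.0455), at 1.2 ± 1.38 CPM. Foxj1, of the lung epithelial list, was lower by origin (-1.69), at 8.84 ± 6.81 CPM in YEJG-derived and 28.4 ± 10.7 CPM in YEJH-derived lines. Cdh5 was also lower (-3.88) and reached at most 0.462 CPM in any line. The summed fibroblast list ran from 0.000159% to 0.000392% of the reads on genes in parental libraries, from 0.000324% to 0.000631% in fat-pad libraries and from 0.000239% to 0.00535% in lung libraries, and Dcn and Lum were below the filter. The part of these markers in the levels of Malat1 and Neat1 was not tested.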

How the data were processed

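Polyadenylated RNA of 15 mouse cell lines, 3 technical repeats each, was sequenced from unstranded TruSeq v2 libraries on a NextSeq500. The deposited values are raw counts per gene, which the authors made with HISAT2, SAMtools 1.2 and HTSeq, per the labels. Those labels name a human build although the identifiers are those of mouse genes. Symbols came from GENCODE M39 and matched 92.6% of identifiers. The 5 HTSeq rows that name no gene were left out of library sizes, and their shares are of all reads in the table, in which genes took 9723860 to 16943900 reads a library. Precision is limited by the 2 parental lines, and counting error is small beside the spread between repeats.

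Counts were summed per line, filtered with filterByExpr, scaled by TMM and tested in edgeR 4.0.16 (R 4.3.3) by the quasi-likelihood test, with Benjamini-Hochberg adjustment over all genes tested and a threshold of 0.05. Origin was tested with site as a term. Sister lines, library sets and repeat numbers were tested on single libraries. Library set was a term for sister lines, cell line for library sets, and both for repeat numbers. The standard error is the log2 difference over the square root of F. The fits were tested on simulated data with 200 changed genes: for 15637 genes and the origin comparison, 59.7% of the 2-fold changes and 93.9% of the 4-fold changes were called. The no-feature share and the Malat1 to Neat1 ratio were tested by exact permutation. Alternatives were DESeq2 1.42.0, limma 3.58.1 on single libraries, other scalings, filters, subsets and lines. Named genes were the members, the 5 genes most like each, and at most 4 called genes of each list by size in the origin and in the derived-against-parental comparison. Members and lists were chosen with earlier results of these data known. The interaction, the test of repeat numbers and the fits without a single library or within 1 origin were chosen after seeing the data.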

Additional observations from a re-analysis of the deposited data

Results flagged for a closer look

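The fat-pad line YEJH-FP5 had a Neat1 mean of 91.2 CPM, farther from the nearest of the other 5 fat-pad lines (77.2 CPM) than the 95% limit of Dixon's test allows, with a gap of 74.0% of the group's range.

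The lung line YEJH-M3 had a no-feature share of 8.99% of all reads, against 7.74% in the nearest of the other 9 YEJH-derived lines, a gap of 47.2% of the range and also past that limit. Of its 3 libraries the second held 13.3%, and the other two 6.19% and 7.48%. Chance flags about 1 in 20 groups, and 9 groups were examined.

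The derived-minus-parental difference in Malat1 was larger in YEJG than in YEJH by 1.19 on the log2 scale (edgeR interaction, adjusted p = 0.0449, higher in 3 of 3 YEJG-derived lines and 9 of 10 YEJH-derived lines). It was 1.26 (adjusted p = 0.0549) without the first repeat of YEJG-M1, whose library name carries YEJH-M1, and 0.57 (adjusted p = 0.322) without the third repeat of parental YEJH, whose Malat1 level was 1713 CPM against 608 and 862 CPM in the other two.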

How the results depend on the processing

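The origin difference of Malat1 was 0.19 in lung lines only (edgeR, adjusted p = 0.0454), and 0.30 there without YEJG-M1 repeat 1. These values in lung lines are not independent of the choice of Malat1. When a line or a repeat number was left out, the origin difference ran from -0.021 to 0.19. That of Neat1 was 0.058 in library set A alone and 0.0060 without YEJH-M3 repeat 2, and ran from -0.18 to 0.025 by leaving out. Malat1 in derived against parental lines passed with DESeq2 (0.59, adjusted p = 0.0413), with libraries kept apart in limma (0.78), in library set A alone (0.79) and without YEJH repeat 3 (0.99), and ran from 0.13 (without YEJG) to 1.32 (without YEJH) by leaving out. Neat1 in that contrast was -0.12 in YEJH lines only and ran from -0.11 to 0.61. Over all alternatives the adjusted p ran from 0.0016 to 0.878 for Malat1 and from 0.0616 to 0.941 for Neat1.

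The genes called in derived against parental lines numbered 1272. They were 2027 with DESeq2, 2481 with limma on single libraries, 685 in set B alone, 657 with the no-feature share as a term, 2600 without YEJH repeat 3, 0 in YEJG lines only and 566 in YEJH lines only, and 141 (without YEJG) to 2281 (without YEJH) by leaving out, with 627 without repeat 1 and 2149 without YEJG-FP. In lung against fat-pad lines the count of 0 became 22 with DESeq2, 77 with limma on single libraries, 1 in set A alone, 3 with origin as a term and 7 in YEJH lines only, and 0 to 1 by leaving out. Among YEJH lung lines the count of 2808 became 782 to 1636 with 1 repeat number less, and among YEJH fat-pad lines the count of 160 became 1 to 175, and 596 without the expression filter.

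Without that filter Neat1 also passed among YEJH lung lines (0.68, edgeR adjusted p = 5.6e-11) and Malat1 among fat-pad lines (0.31, adjusted p = 6.12e-06). With the filter the spans were 0.67 (adjusted p = 0.271) and 0.30 (adjusted p = 0.9995), so the p-values changed while the spans hardly did. Both members also passed between library sets without it (0.12 each). Why the filter mattered was not tested, and calls made without it are not read as results. Neat1 also passed among lung lines without YEJH-M3 repeat 2 (0.63). The interaction in Malat1 was 0.57 without YEJH repeat 3, 1.26 without YEJG-M1 repeat 1 and 0.68 to 1.41 with 1 repeat number less, with 144 to 292 genes called. The no-feature share differed by origin by 0.74 points in set A alone (p = 0.021) and by -0.11 to 0.73 points by leaving out, and the Malat1 to Neat1 ratio by -0.0016 to 0.29 (exact permutation tests).

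The repeat numbers were examined as a replicate block. Once line and library set were removed, libraries of different lines with the same number had a mean correlation of 0.14 over 315 pairs, from -0.22 to 0.57, against -0.071 with other numbers, so not every pair passed 0.1. Under the replicate block with libraries kept apart in limma, derived against parental lines gave 0.79 for Malat1 (adjusted p = 0.0016) and 2563 genes, against 0.78 (adjusted p = 0.0079) and 2481 in limma without the block, and lung against fat-pad lines gave 70 genes against 77. The fat-pad sister lines gave 365 genes in edgeR with the block. Set against the same tool without it, the block changed no call on the members. Numbers shared by YEJH fat-pad and lung lines had a mean correlation of -0.038 over 5 pairs.

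The 2 parental lines, 1 for each origin, limit every statement on derived against parental lines, and in edgeR the Malat1 call changed without 1 of their 6 libraries. The 1 fat-pad line of YEJG limits statements on that origin. At these depths Malat1 had at least 4907 counts and Neat1 at least 523 in a library, so counting error was not the limit.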
